A study of Danio rerio with 12 samples.

Results

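Crest growth factor and endothelin receptors are the cell surface proteins through which neural crest cells read neuregulins, endothelins, Kit ligand, the GDNF family, hepatocyte growth factor and the platelet-derived growth factors. The 10 genes described are erbb2, erbb3b, ednraa, ednrab, kita, kitb, ret, met, pdgfra and pdgfrb, out of 25878 gene identifiers in the deposited table. They were chosen by name: erbb3b, ednrab and kitb matched a row directly, erbb2, ret, met, pdgfra and pdgfrb matched ERBB2, RET, MET, PDGFRA and PDGFRB when case was ignored, and ednraa and kita matched EDNRA and KIT after the paralog letter was dropped. Each name led to 1 identifier.

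The data are RNA sequencing profiles of 12 bulk libraries from the trunk crest of zebrafish, with 20 sorted cells in each. The 8 migratory libraries come from embryos at 24 hours after fertilisation, with cells taken beside somites 10 to 15, and the 4 premigratory libraries from embryos at 16 hours, with cells taken from a larger region drawn over the dorsal trunk. All embryos of both groups carried the transgene sox10:H2B-Dendra2, in which the sox10 promoter drives a nuclear photoconvertible protein, were labelled as control in treatment, and were anaesthetised with tricaine, mounted and photoconverted with a violet laser before sorting. The protocol gives 8 photoconverted embryos per population and names leader and follower cells, but the labels do not tie a library to either, and it is not given whether the cells of a library came from 1 embryo or several. Stage, age and sampled region change together between the groups and cannot be told apart.

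The sox10 gene itself was present in every library, at 1225 to 22646 in migratory and 3769 to 16200 in premigratory libraries, in the unit of the deposited table, the authors' normalised read count per gene. The crest transcript crestin was lowest in migratory library 5 (135) and in premigratory library 1 (5.97). Migratory library 5 had the highest summed value of 16 blood and endothelium markers (1789416, against 17579 or less in every premigratory library and 22076 or less in the other migratory libraries). The summed value of 15 epidermis markers was high in migratory libraries 8 and 1 (757468 and 564521) and in premigratory libraries 1 and 4 (2078548 and 379713). Summed muscle and somite markers were 1015 to 918148 in migratory and 224 to 3796 in premigratory libraries. Genes with a value of 10 or more numbered 9007 to 11896 per migratory and 3650 to 6879 per premigratory library, and with this number as a covariate no tested gene passed (limma, 411 genes higher and 412 lower at an unadjusted p under 0.05). The ranges do not overlap, so that fit can hardly separate the group from the number of detected genes. A call lost in it therefore decides nothing, here and below. In such pooled samples fewer cells that carry a transcript and less of it per cell cannot be told apart.

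**Figure D1:**
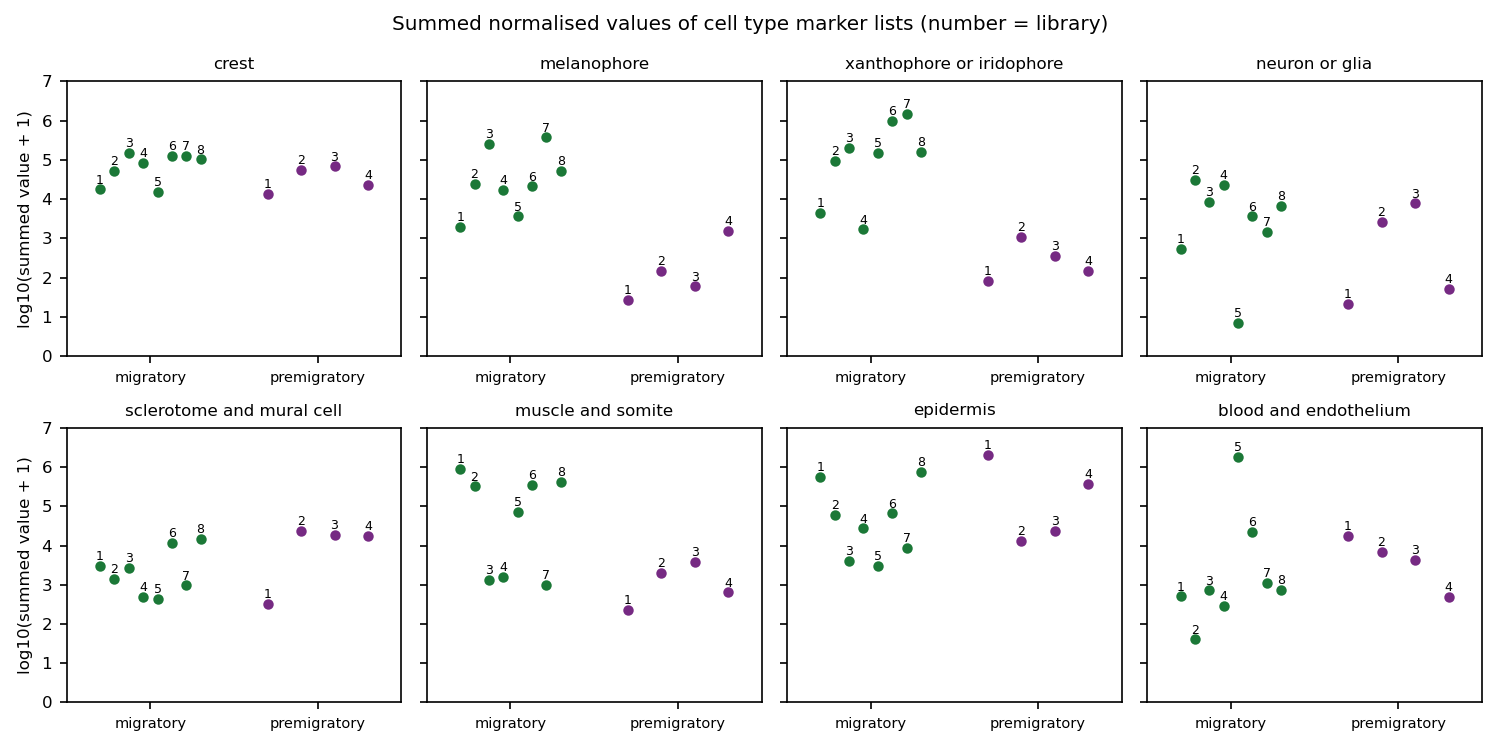
Summed normalised values of 8 lists of cell type markers in each library, on a log10 scale, with migratory libraries on the left and premigratory libraries on the right of each panel; numbers are library numbers. Migratory library 5 stands highest for blood and endothelium (1789416) and premigratory library 1 for epidermis (2078548).

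Most of these receptors are tyrosine kinases: a ligand brings receptors together, their kinase domains phosphorylate one another, and adaptors such as Grb2 and Shp2 pass the signal to the Ras and phosphoinositide 3-kinase routes. The endothelin receptors instead couple to G proteins. In crest, ErbB3 with ErbB2 serves glial precursors, Kit and endothelin receptor B serve pigment cells, Ret serves enteric and autonomic neurons, and PDGF receptor alpha serves crest that forms mesenchyme.

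Over all tested genes the question was which transcripts differ between crest cells that have migrated and those that have not. Of the 10 receptor genes 7 reached 10 in 4 or more libraries and were tested. For erbb2, erbb3b and ret all of these libraries were migratory, so they passed the filter through that group alone. Of the 7 tested, erbb3b rose and pdgfra fell, and 5 did not pass (limma on log2(value + 1), Benjamini-Hochberg adjusted p under 0.05). Over all 12122 tested genes 12.4% rose and 0.132% fell, which is 1508 genes against 16. Quantile normalisation gave 139 higher and 53 lower genes. With the library number as a fixed replicate block no gene passed (limma, 2241 higher and 81 lower at an unadjusted p under 0.05). As a random replicate block the number gave 1543 higher and 17 lower genes (limma adjusted p under 0.05). The correlation fitted within a number was 0.0175, so the random block is close to no block and is not a separate check. The share of the tested receptors that rose, 1 of 7, was near that background, while pdgfra belongs to the 16 genes that fell. The median log2 fold change was 1.25 over the 7 receptors and 2.67 over all tested genes, so a log2 fold change of 2.67 is the typical difference here. All differences below are migratory minus premigratory in mean log2(value + 1), a scale that understates changes of genes with low values.

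A complete separation of the groups was seen for none of the 10 receptors, 7 of which were tested. Over all tested genes 4.83% had all migratory libraries higher and 0.14% had all migratory libraries lower. A count of 0 in 7 is near these shares. The number of receptors at 10 or more was 2 to 8 per migratory library, with the lowest number in library 5 and the highest in library 8. It was 2 to 4 per premigratory library. The plot of receptor values by library shows that ednrab was the receptor found at 10 or more in all 12 libraries, and that no other receptor exceeded 6.

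**Figure D2:**
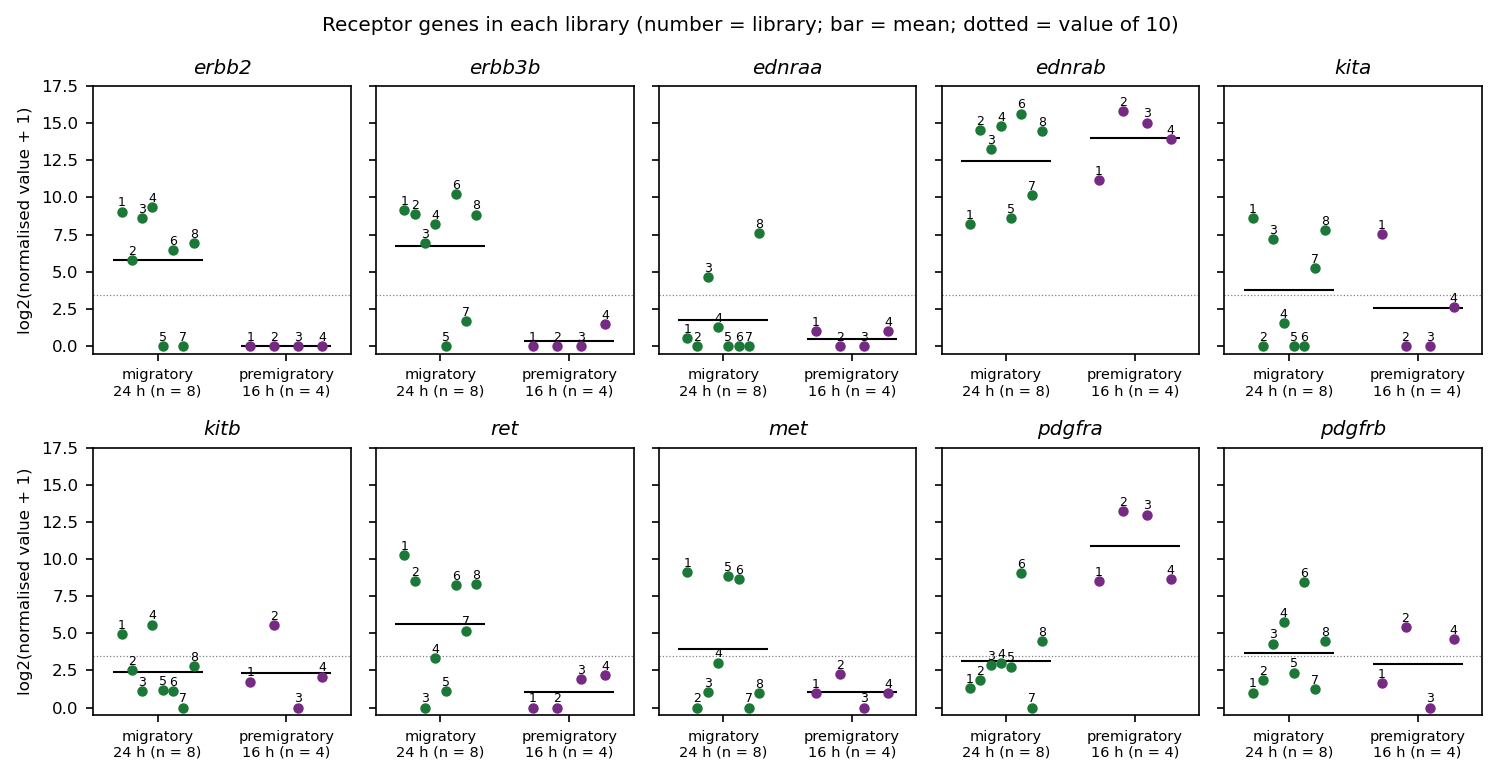
Value of each of the 10 receptor genes in each library as log2(normalised value + 1), migratory libraries (n = 8) left of premigratory libraries (n = 4); numbers are library numbers, bars are group means and the dotted line marks a value of 10. The erbb2 and erbb3b panels show 6 migratory libraries above the line and no premigratory library, and the pdgfra panel shows all 4 premigratory libraries above it and 2 migratory ones.

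The neuregulin receptors erbb2 (ENSDARG00000026294) and erbb3b (ENSDARG00000036993) each reached 10 in 6 migratory libraries and in no premigratory library, and erbb3b passed the test. ErbB3 binds neuregulin but has little kinase activity of its own, and ErbB2 has no known ligand and supplies the active kinase of the dimer. In zebrafish both genes are needed for the migration of Schwann cell precursors along nerves. Values of erbb3b were 0 at the lowest, 380 at the median and 1181 at the highest among migratory libraries, against 0, 0, 0 and 1.78 in premigratory libraries. Migratory libraries 1, 2, 3, 4, 6 and 8 held 119 or more, library 7 held 2.16 and library 5 none. The means were 387 ± 388 in migratory (SD, n = 8) and 0.445 ± 0.890 in premigratory libraries (SD, n = 4). The difference was 6.37 on the log2 scale (SE 1.92, limma adjusted p = 0.0400), or 4.04 with a pseudocount of 10 in place of 1 (adjusted p = 0.0860).

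The erbb3b call is near its threshold. With the shared library number as a fixed replicate block its adjusted p was 0.158 (limma, log2 fold change 7.92). As a random block the number gave 0.0383. The call depended on the filter on low values, with an adjusted p of 0.0557 at a filter of 2 libraries and 0.105 with no filter (limma). It was also lost without any one of migratory replicates 2, 3, 6 and 8 or premigratory replicates 1 to 4. These fits gave limma adjusted p = 0.0547 to 0.103. The call was also lost under all 4 scalings (adjusted p = 0.0531 to 0.228), with a log2 fold change of 3.54 under quantile normalisation, and the fold change was 1.12 with the number of detected genes as a covariate (adjusted p = 0.970). In each of the 4 pairs of libraries with the same number the migratory library was higher, by 6.75 to 9.15 on the log2 scale. The pairs leave out migratory libraries 5 and 7, which held 0 and 2.16, so they add no support for a rise. Over all tested genes 85.5% had a positive log2 fold change in the 12 libraries.

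For erbb2 migratory libraries held 0 at the lowest, 104 at the median and 652 at the highest, while the gene was listed at 0 in all 4 premigratory libraries. The same 6 migratory libraries that held erbb3b at 10 or more held erbb2 at 10 or more, and the same 2, libraries 5 and 7, held neither. The order within these 6 differed: erbb2 was highest in migratory library 4 (652) and lowest in library 2 (53.9), whereas erbb3b was highest in library 6 (1181) and lowest in library 3 (119). No fold is given against a group at 0. The test of erbb2 just missed its threshold (limma adjusted p = 0.0517). It passed without migratory replicate 5 (adjusted p = 0.0217) or replicate 7 (0.0303), and in batches 1 to 4 alone (0.0108). These fits leave out migratory libraries listed at 0 for erbb2, so their passes add no support for a rise. With the random replicate block erbb2 passed (limma adjusted p = 0.0485), and with the fixed block it did not (0.158). It did not pass under any of the 4 scalings (0.0619 to 0.309) or with the number of detected genes as a covariate (0.916). Nor did it pass without any one premigratory replicate (0.0846 to 0.117), with a filter of 2 libraries (0.0701) or with no filter (0.145).

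The ligand NRG1, which encodes neuregulin 1, followed another pattern of libraries. It was 863 and 263 in migratory libraries 1 and 8 and 18.5 or less in the other migratory libraries, against 2587 and 953 in premigratory libraries 1 and 4 and 1.05 or less in premigratory libraries 2 and 3. These are the 4 libraries with the highest summed epidermis markers, and the part of those markers in the NRG1 values was not tested. The second erbb3 identifier, listed as ERBB3, was 1.33 to 223 in migratory and 0 to 33.3 in premigratory libraries and did not pass (log2 fold change 0.76, limma adjusted p = 0.756). The 3 identifiers named ERBB4 were at 10 or more in migratory library 4 for 1 of them (79.7), in migratory library 7 for another (17.6), and in no premigratory library.

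Of the endothelin receptors, ednrab (ENSDARG00000062262) exceeded 10 in every library of both stages and ednraa (ENSDARG00000011876) in few. Endothelin receptor A in zebrafish cranial crest receives the Edn1 signal that patterns the ventral jaw. Values of ednrab were 290 at the lowest, 16363 at the median and 51220 at the highest in migratory libraries, against 2285, 56706, 33575 and 15832 in premigratory libraries 1 to 4. The groups overlapped over most of their range. The log2 fold change was -1.53 (SE 1.35, 95% interval -4.37 to 1.32, limma adjusted p = 0.449), an interval that takes in both falls and rises.

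Low ednrab values fell in particular libraries. In the migratory group they were 290, 389 and 1148 in libraries 1, 5 and 7, against 9796 or more in the other 5. Libraries 1 and 5 also had the lowest crestin values of the migratory group (1406 and 135), but library 7 held crestin at 7029 and SOX10 at 11034. Library 7 had the highest summed melanophore markers (374129) and the highest summed xanthophore or iridophore markers (1485143) of all 12 libraries. Premigratory library 1, with the lowest ednrab of its group, had the highest summed epidermis markers of all 12. The part of these other cell types in the ednrab values was not tested.

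The identifier ENSDARG00000089334, listed as EDNRB, ran differently. EDNRB is the endothelin receptor of pigment cell precursors. It was 0 at the lowest, 512 at the median and 4386 at the highest in migratory libraries, against 0, 2.94, 4.95 and 0.963 in premigratory libraries. It was at 155 or more in migratory libraries 2, 3, 4, 6, 7 and 8, so that library 7, low in ednrab, held it at 1636. The test did not pass (log2 fold change 5.81, SE 2.24, limma adjusted p = 0.0911).

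By contrast ednraa reached 10 in only 2 libraries, migratory libraries 3 (24.1) and 8 (196), and was 1.01 or less in every premigratory library; it lay below the filter on low values. Of the endothelin ligands edn1 reached 10 in 1 library, migratory library 6 (1061), while edn2 and edn3b stayed below 10 in all 12. The converting enzyme ECE1, which cuts endothelin to its active form, was at 179 to 992 in 4 migratory libraries and at 1.01 or less in premigratory ones, and did not pass (limma adjusted p = 0.175).

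**Figure D3:**
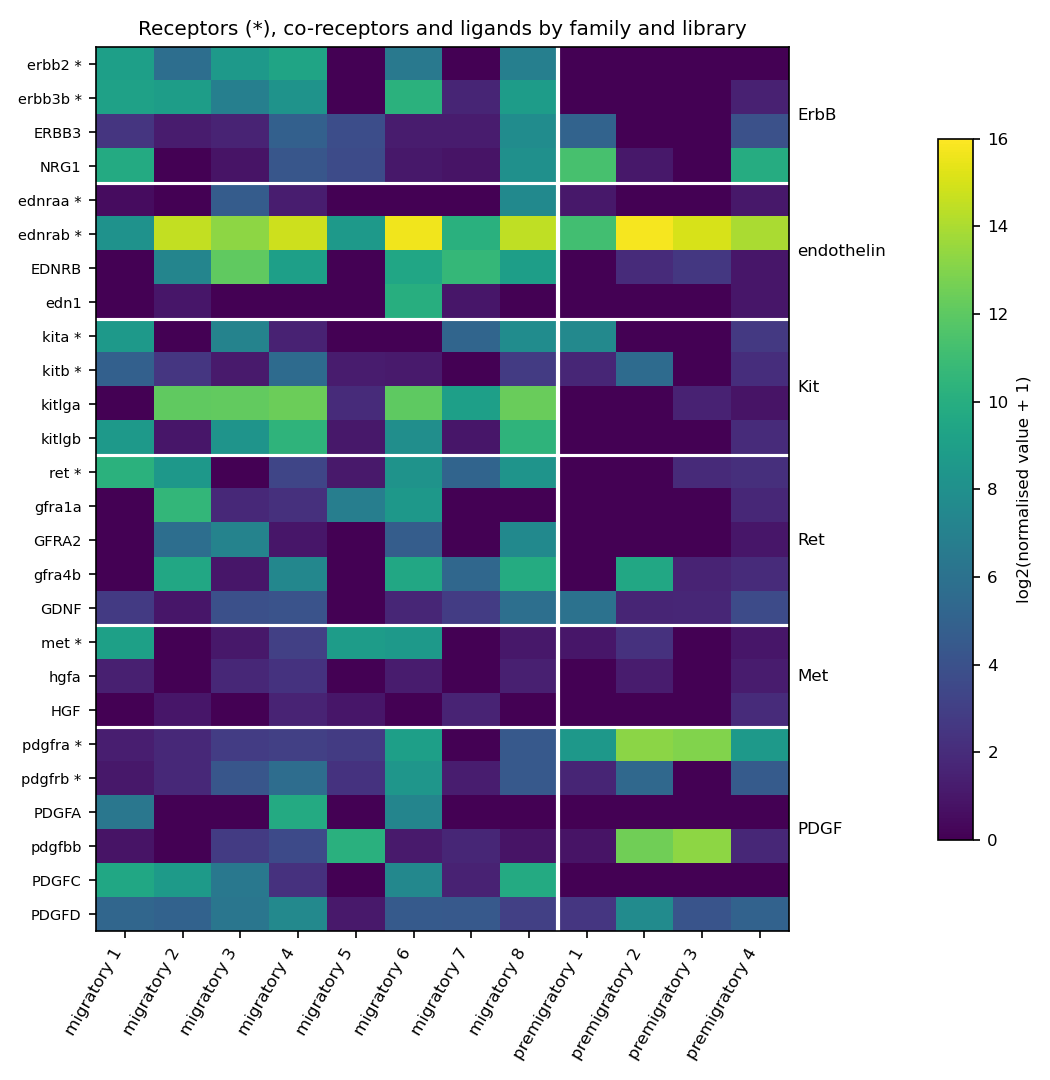
Receptors (marked *), co-receptors and ligands of 6 families as log2(normalised value + 1) in each library, migratory libraries left of the vertical white line and premigratory libraries right of it. The kitlga row is bright in 6 migratory libraries, the pdgfra and pdgfbb rows are brightest in premigratory libraries 2 and 3, and the hgfa and HGF rows stay dark throughout.

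The Kit receptors were sparse at both stages, whereas the ligand kitlga rose. Kita is the Kit receptor that zebrafish melanophores need to migrate and survive. Values of kita (ENSDARG00000043317) were 0 at the lowest, 19.2 at the median and 386 at the highest in migratory libraries, against 182, 0, 0 and 5.23 in premigratory libraries 1 to 4. It was at 10 or more in migratory libraries 1, 3, 7 and 8 and premigratory library 1. The log2 fold change was 1.25 (SE 2.06, 95% interval -3.10 to 5.60, limma adjusted p = 0.699), and quantile normalisation turned its sign (-1.76). Premigratory library 1 and migratory libraries 8 and 1, which held kita, had the highest summed epidermis markers (2078548, 757468 and 564521). Migratory libraries 3 and 7 held kita with sums of 4154 and 8814. In premigratory library 4, with a sum of 379713, kita was 5.23. The part of these markers in the kita values was not tested. The melanophore regulator MITF (ENSDARG00000003732) was at 374 or more in each of the 4 migratory libraries with kita, and at 789, 2400 and 3057 in 3 migratory libraries without it; in premigratory library 1, which held kita, it was 3.71. The paralog kitb (ENSDARG00000056133) was at 10 or more in migratory libraries 1 and 4 (29.3 and 46.9) and premigratory library 2 (46.5) and below 6 elsewhere, and lay below the filter.

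The Kit ligand kitlga was 0 at the lowest, 4313 at the median and 5522 at the highest in migratory libraries, against 0, 0, 1.89 and 0.833 in premigratory libraries. Migratory libraries 2, 3, 4, 6 and 8 held 4253 to 5522, library 7 held 517, library 5 held 2.85 and library 1 none. The log2 fold change was 8.41 (SE 2.41, limma adjusted p = 0.0330). All libraries with kitlga at 10 or more were migratory, so it passed the filter through that group alone. The call was lost with the fixed replicate block (limma adjusted p = 0.179) but not with the random one (0.0316). It was lost with no filter on low values (0.0627) and with 3 of the 4 scalings tried. It was also lost without any one of migratory replicates 3, 6 and 8 or of the premigratory replicates (adjusted p = 0.0537 to 0.0696). Of the 6 migratory libraries with kitlga at 10 or more, 3 also held kita. The second ligand gene, kitlgb, was 238 to 1363 in 5 migratory libraries (1, 3, 4, 6 and 8) and 2.89 or less in premigratory libraries (limma adjusted p = 0.0808).

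The Ret receptor gene reached 10 in 5 migratory libraries and in no premigratory one. Ret binds GDNF family ligands only together with a GPI-anchored co-receptor of the GFRA family. Values of ret (ENSDARG00000055305) were 0 at the lowest, 166 at the median and 1210 at the highest in migratory libraries, against 0, 0, 2.71 and 3.53 in premigratory libraries. Library 1 was highest, libraries 2, 6 and 8 held 296 to 366 and library 7 held 35.1, while libraries 3, 4 and 5 held 9.02 or less. Summed values of 9 pronephros markers were highest in migratory libraries 1 and 2 (143510 and 20230), against 10145 or less in every other library. They were 3891, 2220 and 2186 in libraries 6, 8 and 7, which held ret, and 6421 in library 5, which did not. The part of these markers in the ret values was not tested. The log2 fold change of ret, 4.59 (SE 1.91, 95% interval 0.56 to 8.63), did not pass over all genes (limma adjusted p = 0.114).

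Of the 5 migratory libraries with ret, 4 also held a GFRA identifier at 10 or more, and library 1, the highest for ret, held none. The 3 migratory libraries with ret below 10 also held a GFRA identifier at 10 or more, which makes 7 of 8. The co-receptor gfra1a was at 1540, 115 and 365 in migratory libraries 2, 5 and 6, and gfra4b at 39.7 to 910 in migratory libraries 2, 4, 6, 7 and 8 and 789 in premigratory library 2. GFRA2 (ENSDARG00000042723) was at 25.6 to 192 in 4 migratory libraries. Among the ligands, the GDNF identifier ENSDARG00000039959 reached 55.9 in migratory library 8 and 65.1 in premigratory library 1, and nrtn stayed below 10 everywhere.

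The met gene (ENSDARG00000070903) encodes the receptor for hepatocyte growth factor, used in vertebrate embryos by migrating muscle precursors and by motor neurons. It reached 10 in 3 migratory libraries, at 545, 463 and 394 in libraries 1, 5 and 6, and at 7.15 or less in the other migratory libraries, against 0.998, 3.82, 0 and 0.984 in premigratory libraries. With 3 libraries at 10 or more it lay below the filter. A two-sided exact permutation test of this single gene over all arrangements of the libraries gave p = 0.263, where 0.00202 is the smallest p that the design allows. The same exact permutation test gave p = 0.515 for ednraa and p = 0.949 for kitb, the other receptors below the filter. The 2 ligand identifiers, hgfa and HGF, stayed below 10 in all 12 libraries. The 3 libraries with met, together with libraries 2 and 8, are the 5 migratory libraries with summed muscle and somite markers of 70479 or more, and the part of these markers in the met values was not tested.

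The platelet-derived growth factor receptor pdgfra (ENSDARG00000070494) was the receptor that fell. PDGF receptor alpha guides cranial crest in zebrafish and marks crest and mesoderm that become mesenchyme. Values in migratory libraries were 0 at the lowest, 6.00 at the median and 529 at the highest, against 368, 9605, 8123 and 396 in premigratory libraries 1 to 4. Migratory library 6 held 529 and library 8 held 21.0, and the other 6 held 7.02 or less. Library 6 lay above premigratory libraries 1 and 4, and all other migratory libraries lay below every premigratory library. The means were 71.6 ± 185 in migratory (SD, n = 8) and 4623 ± 4934 in premigratory libraries (SD, n = 4). The log2 fold change was -7.68 (SE 1.80, limma adjusted p = 0.0135). Among all 12122 tested genes it ranked 2 from the lowest log2 fold change.

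The fall of pdgfra kept its direction and its call without any single library (log2 fold change -8.52 to -6.89, limma adjusted p = 0.00550 to 0.0467) and under all 4 scalings. In the 4 pairs of libraries with the same number the migratory one was lower every time, by 5.63 to 11.39 on the log2 scale. These pairs leave out migratory library 6, the highest of its group at 529. The call was lost with the fixed replicate block, a fit with 3 residual degrees of freedom (log2 fold change -8.59, limma adjusted p = 0.158). It was kept with the random block (limma adjusted p = 0.0126), a fit close to the one without a block. The call was lost with the number of detected genes as a covariate (-9.89, SE 4.24, limma adjusted p = 0.715). That fit hardly separates this number from the group. The two-sided exact permutation test of this gene gave p = 0.00606.

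Libraries with pdgfra differed in what else they held. The mesenchymal regulator twist1a was 1935 and 2109 in migratory libraries 6 and 8, the 2 migratory libraries with pdgfra at 10 or more, and 253 in migratory library 5, where pdgfra was 5.74. It was 14473, 14508 and 14260 in premigratory libraries 2, 3 and 4 and 0 in premigratory library 1, where pdgfra was 368. The summed level of 16 sclerotome and mural cell markers, twist1a among them, was 428 to 14756 in migratory and 317 to 23183 in premigratory libraries. In migratory libraries 8 and 6 it was 14756 and 11945, against 2970 or less in the other migratory libraries. It was 23183, 18747 and 17969 in premigratory libraries 2, 3 and 4, where twist1a made up most of the sum. Of these 16 identifiers 6 were tested, of which 0 rose and 1 fell, beside 12.4% and 0.132% of all tested genes. A count of 0 in 6 is near the share that rose. The fall of twist1b passed (log2 fold change -7.01, limma adjusted p = 0.0336, or 0.172 with the fixed replicate block). The median log2 fold change of the 6 was 1.08, and 3 of them lay above the median of all tested genes, 2.67. Of the 16 identifiers 3 stayed below 10 in all libraries, the mural markers acta2 and ABCC9 among them. KCNJ8 stayed below 10 in all but 1 migratory library. Other mural markers of the list are not named here. The part of such cells in the pdgfra values was not tested.

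The ligand gene pdgfbb, one of the B chain genes, was 1137 and 11.2 in migratory libraries 5 and 4 and 5.97 or less in the other migratory libraries. It was 5933 and 9909 in premigratory libraries 2 and 3, the 2 libraries highest for pdgfra, and 2.38 or less in premigratory libraries 1 and 4 (log2 fold change -4.47, limma adjusted p = 0.209). The other B chain gene, pdgfba, ran differently. It was 38.4, 697 and 207 in migratory libraries 4, 6 and 8 and 0 in the other migratory libraries. In premigratory libraries pdgfba was 1.54 or less, and it lay below the filter. PDGFC, a ligand of receptor alpha, was at 84.2 to 881 in 5 migratory libraries and listed at 0 in all 4 premigratory libraries (limma adjusted p = 0.0567). Of the 3 identifiers named PDGFA, ENSDARG00000109371 was at 81.1, 898 and 157 in migratory libraries 1, 4 and 6 and listed at 0 in premigratory libraries; the identifier ENSDARG00000110069 was at 10 or more in the same 3 libraries, so reads may be split between them. PDGFD was measured throughout, at 1.16 to 185 in migratory and 4.85 to 206 in premigratory libraries (limma adjusted p = 0.938).

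The second PDGF receptor, pdgfrb (ENSDARG00000100897), the receptor of pericytes and other mural cells, was low at both stages. It was 1.01 at the lowest, 11.5 at the median and 344 at the highest in migratory libraries, against 2.10, 41.0, 0 and 23.5 in premigratory libraries. Migratory library 6 was highest, as for pdgfra in its group. The log2 fold change of 0.77 (SE 1.62, 95% interval -2.64 to 4.18, limma adjusted p = 0.766) changed sign under 3 of the 4 scalings and without premigratory replicate 3 (-0.20). In the RefSeq assembly GRCz12tu kita and pdgfra are neighbouring coding genes, as are csf1ra and pdgfrb. In premigratory libraries 2 and 3, where pdgfra was 9605 and 8123, its neighbour kita was listed at 0. The receptor gene csf1ra was at 523, 634 and 1180 in migratory libraries 5, 6 and 7 and 5.93 or less in premigratory libraries. Of these 3 only library 6 also held pdgfrb at 10 or more. Libraries 5 and 6 had the highest summed blood and endothelium markers of the migratory group (1789416 and 22076), and library 7 had 1140. The part of these markers in the csf1ra values was not tested.

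**Figure D4:**
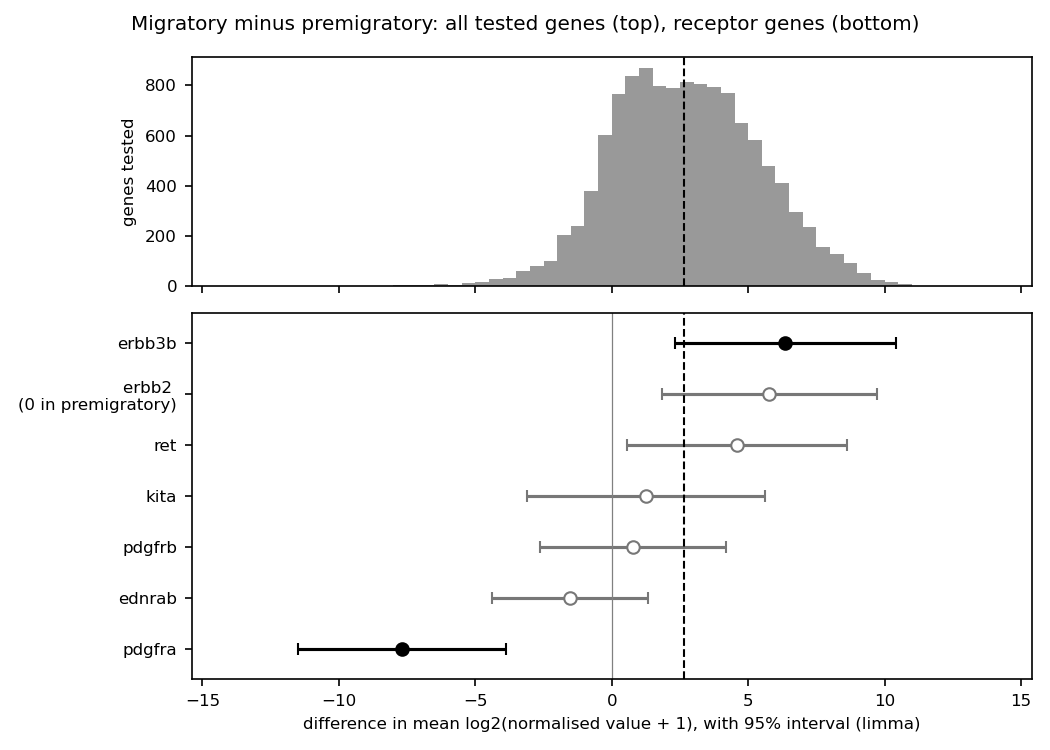
Top, number of tested genes by difference in mean log2(normalised value + 1), migratory minus premigratory; bottom, the same difference for the 7 tested receptors with its 95% interval from limma, filled where the adjusted p is under 0.05. The dashed line marks the median of all tested genes, 2.67; pdgfra lies at -7.68 and erbb3b at 6.37, whose interval of 2.31 to 10.43 takes in that median, and for erbb2, at 0 in all premigratory libraries, no fold is read from the point.

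Of the wider signalling genes few passed the test, at shares near or below the 12.4% of all genes. Among adaptors and effectors 4 of 48 tested identifiers rose and 0 fell, with a median log2 fold change of 3.00. The 3 with the smallest p were CRKL, an adaptor of Crk type (log2 fold change 7.70, SE 1.89, limma adjusted p = 0.0172), ptpn11b, which encodes an Shp2 phosphatase (6.99, SE 1.82, adjusted p = 0.0220), and grb2b, the adaptor that brings Sos to receptors (6.22, SE 1.80, adjusted p = 0.0345). For grb2b the means hardly differed, at 2053 ± 574 in migratory (SD, n = 8) and 1870 ± 3733 in premigratory libraries (SD, n = 4), because premigratory library 1 held 7469 and the other 3 held 8.21 or less. The values of ptpn11b were 3.89 to 1853 in migratory and 0 to 1.91 in premigratory libraries. CRKL was at 593 or more in 7 migratory libraries and at 0.968 in library 4, against 0.989 to 4.82 in premigratory libraries.

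Among ligands 1 of 9 tested rose (kitlga) and 0 fell, and among genes for ligand processing 1 of 8 rose and 0 fell. The processing gene that rose was ADAM17 (ENSDARG00000043213), the protease that sheds ErbB ligands, at 4.06 to 1413 in migratory and 0 to 2.70 in premigratory libraries (log2 fold change 6.48, SE 1.68, limma adjusted p = 0.0213). For kitlga, ADAM17, CRKL and ptpn11b all libraries at 10 or more were migratory, so they passed the filter through that group alone. With the fixed replicate block kitlga, ADAM17, CRKL, ptpn11b and grb2b did not pass (limma adjusted p = 0.179 to 0.246). With the random block, a fit close to the one without a block, all 5 passed (limma adjusted p = 0.0168 to 0.0331). None of these 5 passed under quantile normalisation or with the number of detected genes as a covariate. CRKL passed without each single library, ADAM17 did not without premigratory replicate 3 (limma adjusted p = 0.0644), and ptpn11b did not without premigratory replicates 1 or 3 (0.0509 and 0.0622). The grb2b call was lost without any one of migratory replicates 2, 3, 6, 7 and 8 or of premigratory replicates 2, 3 and 4 (limma adjusted p = 0.0514 to 0.107) and under 3 of the 4 scalings. With a pseudocount of 10, ADAM17, ptpn11b and grb2b did not pass (adjusted p = 0.0501 to 0.0798). With no filter on low values kitlga, ptpn11b and grb2b did not pass (limma adjusted p = 0.0528 to 0.0627). No gene passed among 4 other receptors of the families, 5 co-receptors and 13 feedback inhibitors. The feedback inhibitors DUSP6 and SPRY4, which growth factor signalling induces, were measured at both stages: DUSP6 was 521 to 4172 in migratory and 882 to 8906 in premigratory libraries (limma adjusted p = 0.462), and SPRY4 was 2.14 to 13001 in migratory and 871 to 11208 in premigratory libraries (adjusted p = 0.553).

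The genes most like each tested receptor over the 12 libraries were found by Pearson's r of log2(value + 1) among 10642 named, tested genes with a mean of 50 or more. These values describe 12 libraries that share the difference between groups and the number of detected genes. The sugar transporter gene SLC35D1 was among the top 3 for both erbb2 (r = 0.964) and erbb3b (r = 0.966), and the collagen gene COL5A2 was next for erbb2 (r = 0.952). For ednrab the closest were pmp22a, a myelin protein gene (r = 0.968), the cadherin gene cdh6 (r = 0.939) and the protocadherin gene PCDH10 (r = 0.937). For pdgfra they were SRSF1, a splicing factor (r = 0.903), FBL, which encodes the nucleolar protein fibrillarin (r = 0.893), and MYEF2 (r = 0.889). The list for ret held the ErbB ligand gene hbegfa (r = 0.952) after fxyd11 (0.965) and LZTS2 (0.957). For kita baxb came first (r = 0.974) and for pdgfrb sh3gl3b (r = 0.897).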

How the data were processed

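The files give 1 value per gene and library, a signal that the authors normalised from counts, to judge by the deposited table's name; how they normalised, with which annotation and filters, was not stated in the labels. Per the labels, RNA was amplified with a SMART-Seq v4 kit before Nextera library preparation. The submitters' processing notes name fastp 1.0, Salmon and GRCz11, with no role or order. Between 8.75% and 30.4% of a library's low values were whole multiples of 1 step (tolerance 0.02), so reads were not recovered. Sequencing depth is not known from these normalised values. Their sums were 17765775 to 24227327 in migratory and 10735983 to 21711424 in premigratory libraries. The values are not per length, so levels are not compared between genes.

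Symbols matched 23604 of 25878 identifiers, and 3440 identifiers share a symbol, so that reads of near-identical paralogs may be split. Of 302 symbols in the lists 284 matched. No 2 libraries were copies (highest correlation 0.805), and 0 columns were left unused.

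Groups were compared in limma 3.58.1 under R 4.3.3 (lmFit, then eBayes with a trend) on log2(value + 1), for genes at 10 or more in at least 4 libraries, with Benjamini-Hochberg adjustment over all tested genes; the script was tested on simulated data. A two-sided exact permutation test of single receptors is given unadjusted. Members, lists and tests were chosen with earlier results of these data known. Named genes are all members, ligands of the members, up to 3 called genes per list by p and genes out of the 3 most like each tested member. Not every ligand and not every one of these closest genes is named. Others were named after their values were seen. The result for 1 called adaptor or effector gene is not reported here. The labels call the replicates biological without naming embryos, so the p-values may in part measure technical spread. Alternatives were other pseudocounts, filters, scalings, library weights, a covariate, the replicate block and leaving out libraries.

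The labels call the library number a batch, so numbers 1 to 4 were treated as pairs. Residuals about the group means correlated at 0.0118 to 0.155 (mean 0.0609) between libraries of the same number. For different numbers the range was -0.0924 to 0.1235 (mean -0.00869), so the ranges overlap. Batches 5 to 8 hold migratory libraries only. Tables and plots were made in Python 3.11.15 with pandas 2.3.3, numpy 2.4.6 and matplotlib 3.10.9.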

Additional observations from a re-analysis of the deposited data

Results flagged for a closer look

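Of 20 sets of values (10 receptors in each group) screened for a library far from the others on the log2(value + 1) scale, 1 stood out: erbb3b in premigratory library 4, at 1.78 where the other 3 premigratory libraries were at 0. With 3 of the 4 values at 0, any value above 0 would stand out in this screen.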

How the results depend on the processing

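The fall of pdgfra held under 25 of 27 alternatives, and the rise of erbb3b under 9 of 27, always with the same sign. Those 9 include the fits without migratory replicate 5, alone or with premigratory replicate 1, without migratory replicate 7, and in batches 1 to 4. These fits leave out migratory libraries below 10 for erbb3b, so they add no support for its rise. The 27 include the exact permutation test, judged on an unadjusted p under 0.05 (0.00606 for pdgfra and 0.0182 for erbb3b). The counts of genes higher and lower over all tested genes were 821 higher with a pseudocount of 10; 851 and 7 with no filter; 730 and 58 with median of ratios scaling; 676 and 65 with trimmed mean of M values scaling; 139 and 53 with quantile normalisation (72.4% of calls higher, against 98.95% in the report); 5 lower with library weights; and 351 and 7 in batches 1 to 4. With the number as a fixed replicate block, or with detected genes as a covariate, 0 genes passed in either direction in limma (2241 and 411 higher, 81 and 412 lower at an unadjusted p under 0.05), and no receptor did. The covariate fit hardly separates the group from the number of detected genes, so its lost calls decide nothing. The 4 scalings moved the median log2 fold change of all genes from 2.67 to 1.79, 1.70, 2.35 (same total) and 0 or nearly so (quantile, -0.00105). Leaving out 1 library gave 771 to 1911 higher and 6 to 19 lower genes, with 771 and 6 without premigratory replicate 3.

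The number of receptors that rose was 2 with a pseudocount of 0.5, the random replicate block, batches 1 to 4, or without premigratory replicate 1 and migratory replicate 5 together, and 0 with a pseudocount of 10, no filter, a filter of 2 libraries, each of the 4 scalings, library weights, the fixed block and the covariate; it was 0 to 2 without single libraries. The number that fell was 1 throughout but 0 with the fixed block and the covariate. Signs turned for pdgfrb with median of ratios (-0.0024), trimmed mean of M values (-0.063) and quantile normalisation (-2.75), the covariate (-4.87) and without premigratory replicate 3 (-0.20, in a range up to 1.597 over single libraries left out), for kita with quantile normalisation (-1.76) and the covariate (-3.20), and for ret with the covariate (-0.079). The cause was not tested. For receptors near 10, at 20 cells a library, a missing value does not show absence.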
